A study of Homo sapiens with 8 samples.

Results

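The respiratory chain makes the proton gradient that drives ATP synthesis in mitochondria, and most of its subunits are encoded in the nucleus and imported. The genes examined here were those whose symbol on the promoter arrays named a nuclear-encoded subunit of complex I (NDUFA, NDUFB, NDUFC, NDUFS and NDUFV genes), complex II (SDHA to SDHD), complex III (UQCR genes and CYC1), complex IV (COX4 to COX8 genes) or the ATP synthase, complex V (ATP5 genes). The symbols chose them, with no measured value. There were 80 such genes with 1576 probes, of 17132 genes and 473007 probes on the arrays. The symbol pattern also took in genes that are not subunits in current use of the names, among them COX4NB, which encodes a component of a complex of the endoplasmic reticulum, COX7A2L, which encodes a factor that joins complexes into larger assemblies, and ATP5S, an accessory factor of the ATP synthase. They stayed in all counts. NDUFA4, now named COXFA4 in RefSeq and regarded as a subunit of complex IV, was counted with complex I by its symbol on the arrays.

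Electrons enter the chain at complex I from NADH and at complex II from succinate, pass through complex III to complex IV, and reduce oxygen there. The promoters of the nuclear genes are known as housekeeping promoters rich in CpG, and NRF1, GABPA and YY1 are the transcription factors most often linked to their joint control. SMAD3 is the receptor-activated transcription factor that carries the signal of TGFβ1 into the nucleus, where it joins SMAD4 and binds short SMAD boxes or GC-rich elements.

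SMAD3 binding was measured by ChIP-on-chip in A549, a lung carcinoma cell line of alveolar epithelial type. The basal group was untreated cells, and the stimulated group was cells given TGFβ1 at 2 ng/ml, which the labels time as up to 2 h. The study's text gives a shorter time for these arrays and speaks of more array replicates than were analysed here. Each group had 2 replicates, named biological in the labels, and every replicate was hybridised to 2 slides of different probes, 8 arrays in all. On each array the SMAD3 immunoprecipitate (IP) was in the Cy5 channel and a mock IP in the Cy3 channel, with no dye swap, so a dye effect stays in every ratio. The sample labels call the mock IP anti-FLAG, while the protocol text names a control IgG. The value per gene is the promoter log2 ratio: the log2 of SMAD3 IP over mock IP, averaged over the probes that lie between 2000 bp before and 800 bp after the annotated start, with the median of each array set to 0.

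A genewise test needed at least 3 probes in that window, and 78 of the 80 genes had them. NDUFB9 and SDHD, the latter a membrane anchor of complex II, had 2 each and were not tested. The tested genes had 3 to 18 window probes with a median of 8. Of their window probes, 49.2% were well above background in both channels on every array, beside 46.7% over all genes. The log2 ratios of the 2 basal replicates correlated across probes at r = 0.896 and those of the 2 stimulated replicates at r = 0.918, while pairs from different conditions ran from 0.204 to 0.227. The p-values below measure the spread between these replicates only, which was small beside the difference between the conditions across the whole array.

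After stimulation the promoter ratio was called higher in 20 of the 78 genes and lower in 23 (limma, adjusted p under 0.05), while 35 were not called. Over all 16299 genes tested, 20.3% were called higher and 27.5% lower, so the share of respiratory chain genes called was near that of the array as a whole. The median change was -0.04 in the respiratory chain genes and -0.06 in all genes. The changes that passed ran from 0.39 to 3.64 in size with a median of 1.33, and 24 of the 43 were of 1 log2 unit or more. The 35 others lay between -0.42 and 0.54. The replicates of the conditions did not overlap in 30 genes that were higher after stimulation and in 29 that were lower, beside 32.6% and 42.2% of all genes. Under normexp background correction the calls were 4 higher and 7 lower, beside 4.04% and 6.22% of all genes. With the median of a gene's probes in place of the mean they were 10 higher and 2 lower, beside 4.79% and 6.18%. As shares of the respiratory chain genes these were 5.13% and 8.97%, and 12.8% and 2.56%. The differences from all genes were not tested.

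**Figure D1:**
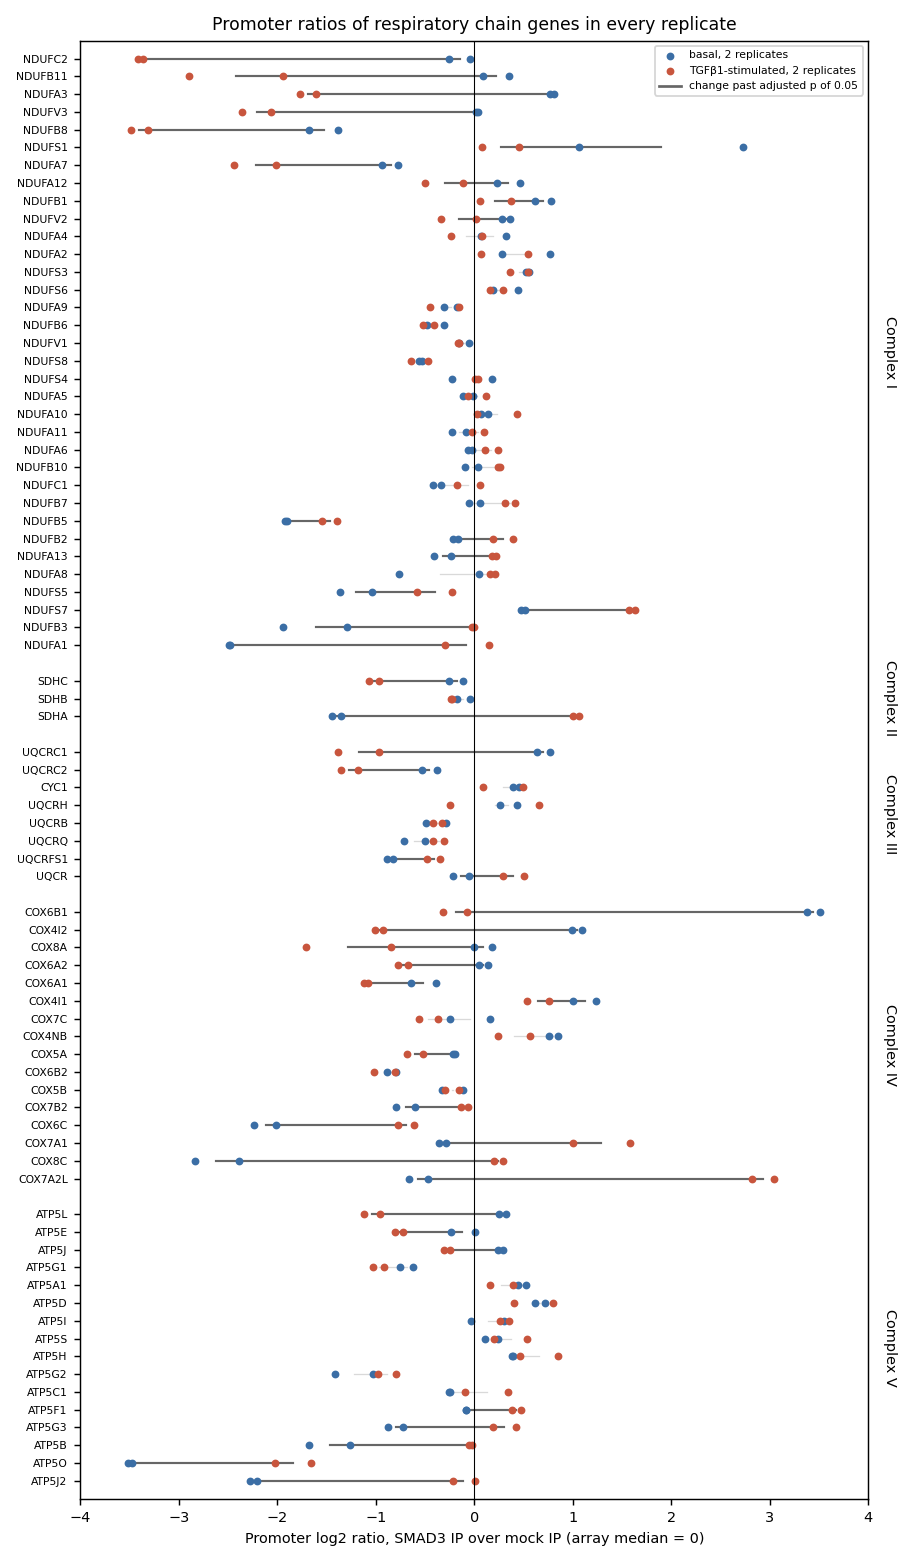
Promoter log2 ratio of SMAD3 IP over mock IP (x axis, array median at 0) for 77 of the 78 tested genes, grouped by complex and ordered by change. Points are the 2 basal and the 2 stimulated replicates, lines join the group means, and dark lines mark the 43 genes whose change passed; COX7A2L (3.50) and COX6B1 (-3.64) are the extremes.

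By complex, complex I had 7 genes higher and 10 lower of 35 tested, complex II 1 and 1 of 3, complex III 2 and 2 of 8, complex IV 5 and 7 of 16, and the ATP synthase 5 and 3 of 16. Each complex had called genes in both directions. The array as a whole did too, with 20.3% of all genes called higher and 27.5% lower. Calls in both directions therefore do not set the complexes apart from other genes, and complex II rests on 3 tested genes. Differences between the complexes and all genes were not tested. The median change was -0.01 for complex I, -0.13 for complex II, -0.06 for complex III, -0.40 for complex IV and 0.23 for the ATP synthase. Of the genes on slide 1, 11 were higher and 3 lower of 33, and on slide 2, 9 were higher and 20 lower of 45. Over all genes, slide 1 had 1498 higher and 1898 lower of 7955, and slide 2 had 1806 and 2581 of 8344. The part of the slide in this split was not tested.

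Among complex I genes with core subunits, NDUFS7, which encodes an iron-sulfur subunit of the electron path, rose. Its basal replicates had promoter ratios of 0.47 and 0.52, and its stimulated replicates 1.57 and 1.63, a change of 1.11 ± 0.13 (SE, limma adjusted p = 0.000263). Of its 7 window probes 2 were called higher and 2 lower. The mean change was 0.19 without the probe at 353 bp (limma adjusted p = 0.306) and 0.33 within 250 bp of the start (0.2), and neither was called. NDUFS1, the large iron-sulfur subunit of the NADH-oxidising arm, fell from 1.06 and 2.73 to 0.08 and 0.45, a change of -1.63 ± 0.45 (limma adjusted p = 0.0178). The basal replicates stood far apart, and the call was lost without stimulated replicate 1 (limma adjusted p = 0.197) and without stimulated replicate 2 (0.129). Window probes of NDUFS1 were shared with EEF1B2, a neighbouring gene. NDUFV2, a flavoprotein partner of NDUFV1, fell by 0.48 on the log2 scale, from 0.28 and 0.36 to -0.34 and 0.02 (limma adjusted p = 0.0373). That call was lost without either basal replicate (limma adjusted p = 0.0509 and 0.106), and without stimulated replicate 1 the change was -0.30 (0.16). The FMN-binding subunit gene NDUFV1 gave -0.06, NDUFS3 -0.09 and NDUFS8 -0.01, and none of the 3 was called. NDUFV1 was called lower in 2 of 16 alternative ways of processing. The 4 replicates overlapped between the conditions in NDUFS3 and NDUFS8.

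The largest complex I falls were in genes of supernumerary subunits, which surround the catalytic core. NDUFC2 had basal ratios of -0.04 and -0.26 and stimulated ratios of -3.42 and -3.36, a change of -3.24 ± 0.14 (limma adjusted p = 2e-06). NDUFB11 went from 0.35 and 0.09 to -2.90 and -1.94, a change of -2.64. NDUFA3 went from 0.77 and 0.81 to -1.61 and -1.77, a change of -2.48. NDUFV3 went from 0.02 and 0.04 to -2.06 and -2.36, a change of -2.24. In each of these 4 genes the replicates of the conditions were far apart. The basal ratio was not called against the array median in NDUFC2, NDUFB11 and NDUFV3 and was above it in NDUFA3, and the stimulated ratio was below it in all 4. With normexp background correction the calls of NDUFC2, NDUFB11 and NDUFA3 were lost (limma adjusted p = 0.0733, 0.138 and 0.254). Over probes well above background in 1 channel or both, NDUFB11 gave 0.51 (limma adjusted p = 0.0956).

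In these 4 genes the mock channel was called and the SMAD3 channel was not. The mean mock signal of NDUFC2 rose by 3.91 log2 units (limma adjusted p = 0.00839), that of NDUFB11 by 3.61 (0.00847) and that of NDUFV3 by 2.60 (0.00937), while their SMAD3 channel changes of 0.74, 1.03 and 0.43 did not pass. In NDUFA3 the mock channel rose by 1.31 (limma adjusted p = 0.033), and the SMAD3 channel change of -1.10 did not pass (0.176). The probe of NDUFC2 at -323 bp had a mock signal at least 185-fold higher in stimulated cells, since it was not well above background in basal cells. In NDUFB11 the probe at 8 bp had a mock signal at least 364-fold higher in stimulated cells on the same terms. NDUFA3 shared window probes with OSCAR.

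NDUFB2 and UQCRB were followed by name, as was NDUFA3, because they appear in a target list of the study. NDUFB2 rose by 0.48 (limma adjusted p = 0.0226), from -0.22 and -0.17 to 0.39 and 0.19. The call was lost without basal replicate 1 (limma adjusted p = 0.0909), basal replicate 2 (0.0571) or stimulated replicate 1 (0.0968), and over probes well above background in both channels the change was 0.16 (0.499). UQCRB, a small complex III subunit, had a change of 0.02 that was not called. At the basal level UQCRB was below the array median at -0.39 ± 0.14 (SD, n = 2). Within 250 bp of the start it was called above the median instead, at 0.53 (limma adjusted p = 0.0158). With normexp its basal value was 0.04 (limma adjusted p = 0.548) and with the median of its probes -0.08 (0.541). That list was drawn from these arrays and is not independent evidence of a direction.

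Complex I also held large rises. NDUFA1, a membrane-arm subunit encoded on the X chromosome, went from -2.48 and -2.49 to -0.30 and 0.15, a change of 2.41 ± 0.17 (limma adjusted p = 1.8e-05). Both of its channels fell: the SMAD3 channel by 2.82 (0.0136) and the mock channel by 5.30 (0.00747). The ratio was close to the array median after stimulation while both signals were lower. At -626 bp the mock signal was at least 1039-fold higher in basal cells, and at -904 bp at least 994-fold. NDUFB8, at -1.68 and -1.38 basal and -3.49 and -3.31 stimulated, fell by 1.87 over all window probes, but over the 5 probes well above background in both channels its change was 2.08 in the opposite direction (limma adjusted p = 3.55e-06). NDUFA7 fell by 1.37, from -0.77 and -0.94 to -2.44 and -2.01, and shared window probes with RPS28. With the median of its probes NDUFA7 gave 0.71 in the opposite direction (limma adjusted p = 0.0437).

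In complex II, SDHA, the flavoprotein that oxidises succinate, rose. Its ratios were -1.35 and -1.44 in basal cells and 1.06 and 1.00 after stimulation, a change of 2.43 ± 0.13 (limma adjusted p = 5e-06). This gene rests on 3 window probes, all well above background in both channels and shared with CCDC127. At 301 bp the ratio was -4.23 and -4.71 in basal cells and 1.62 and 2.01 after stimulation. There the SMAD3 signal moved by 0.12 log2 units and the mock signal by -6.05. At -145 bp the ratio was 1.36 and 1.52 before and 0.99 and 0.82 after, so the gene's rise was not shared by all of its probes. Without the 301 bp probe the mean change was 0.50. SDHC, a membrane anchor, fell by 0.84 (limma adjusted p = 0.00147) but gave 0.20 within 250 bp of the start (0.524), and SDHB, the iron-sulfur subunit, had a change of -0.13 that was not called.

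In complex III, UQCRC1, a core protein of the matrix side, fell by 1.88, from 0.77 and 0.64 to -0.97 and -1.38 (limma adjusted p = 5.9e-05). With normexp correction and with the median of its probes the change was -0.87 and was not called (limma adjusted p = 0.0668 and 0.182). Its partner core gene UQCRC2 fell by 0.81, and the change was -0.62 with normexp (limma adjusted p = 0.0236). With the median of its probes UQCRC2 gave -0.11, which was not called (limma adjusted p = 0.441). Without its probe at 123 bp, whose mock signal rose by 10.84, the change was -0.24. Neither channel was called in UQCRC1 or UQCRC2. Their SMAD3 channel changes were 0.13 and 0.04, and their mock channel changes 2.12 and 0.77. The Rieske iron-sulfur protein gene UQCRFS1 went from -0.89 and -0.83 to -0.35 and -0.48, a change of 0.45 (limma adjusted p = 0.0263). Its 7 window probes went both ways, with 3 called higher and 4 called lower, and without the most changed probe of each gene its value was -0.72 (limma adjusted p = 0.00839). The call was also lost without either basal replicate (limma adjusted p = 0.127 and 0.078) and without stimulated replicate 1 (0.0971). CYC1, the cytochrome c1 gene, had ratios of 0.45 and 0.39 before and 0.49 and 0.09 after, and its change of -0.13 was not called. All 6 of its window probes were well above background in both channels.

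The COX genes counted with complex IV by symbol held the largest change in each direction. The largest rise was that of COX7A2L, not a subunit in current use of the names. COX6B1, the ubiquitous form of a subunit facing the intermembrane space, went from 3.51 and 3.38 to -0.07 and -0.32, a change of -3.64 ± 0.15 (limma adjusted p = 1e-06). Its SMAD3 channel fell by 4.64 (0.0042), the largest fall of that channel among the members, and the mock channel change of -1.07 was not called. At 224 bp the ratio was 9.01 and 8.94 in basal cells and 0.26 and 0.57 after stimulation, and at 88 bp it was 7.88 and 7.75 before and 2.51 and 2.25 after. Both of these probes were well above background in both channels. The change of COX6B1 by the median of its probes was -1.20 (limma adjusted p = 0.0843). The high ratios of COX6B1 downstream of its start were those of basal cells. Outside the window, a probe at -2833 bp fell as well, with the mock channel up by 9.08 there.

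COX7A2L went from -0.47 and -0.66 to 3.04 and 2.82, a change of 3.50 ± 0.15 (limma adjusted p = 2e-06). Its SMAD3 channel rose by 3.07 (0.0194) and its mock channel change was -0.32. The largest probe changes were at 3 neighbouring probes upstream of the start. At -1164 bp the ratio was -0.10 and 0.04 in basal cells and 10.83 and 10.65 after stimulation, at -993 bp it was -0.01 and 0.01 and then 11.84 and 12.44, and at -801 bp -0.11 and 0.03 and then 12.83 and 10.98. The SMAD3 signal was at least 5938-fold higher at the first of these and at least 6977-fold higher at the second, because neither was well above background in basal cells. The probes on each side, at -1602 and -520 bp, lay between -0.22 and 0.09 on every array. Downstream of the start the probe at 170 bp rose by 1.18 (limma adjusted p = 0.0262) and the probe at 297 bp by 2.87 (0.00633), and the mock signal of the latter fell by 5.39. The 3 upstream probes were not well above background in both channels on all arrays. With the 5 probes well above background in both channels the gene's change was 1.34, and with the median of its probes it was 0.26 (limma adjusted p = 0.196).

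**Figure D2:**
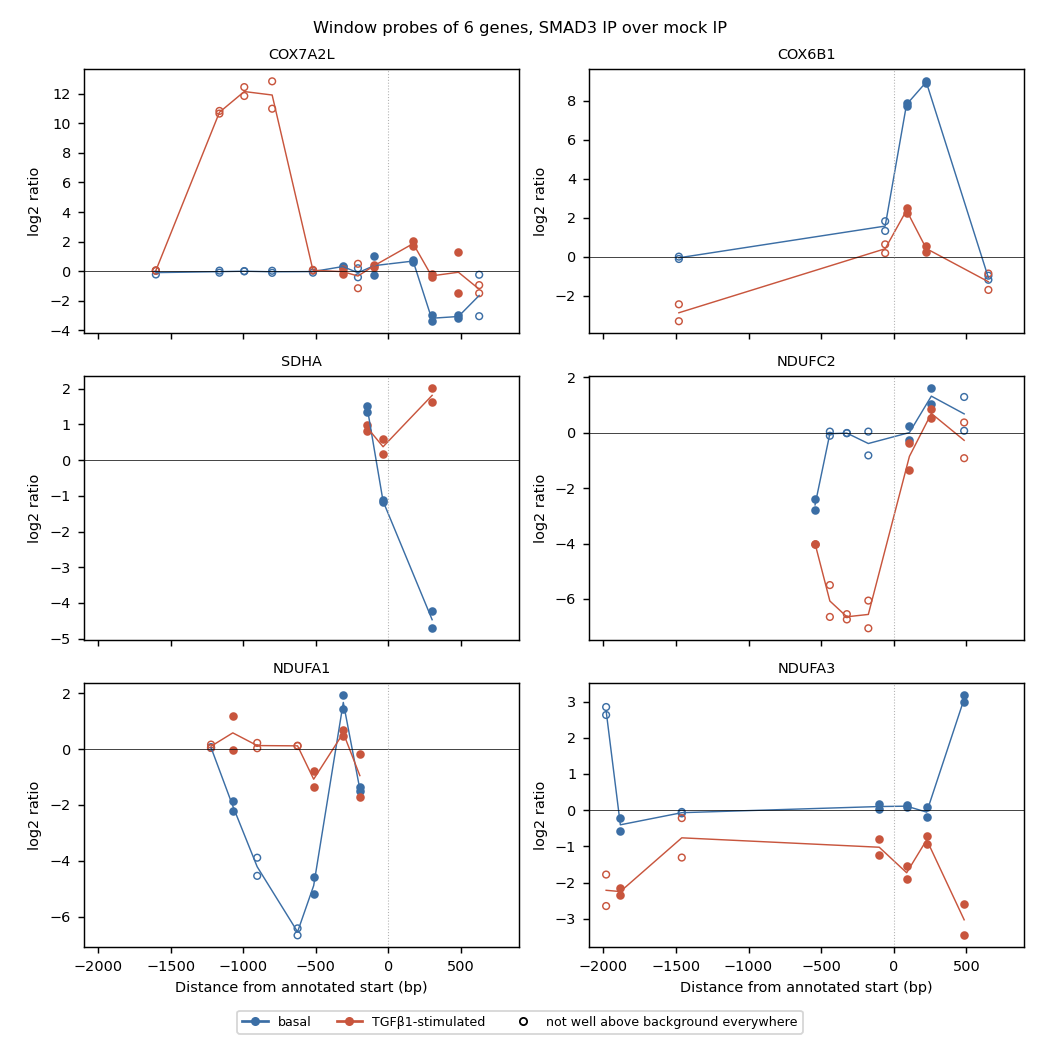
Log2 ratio of SMAD3 IP over mock IP at each window probe (y axis) against distance from the annotated start (x axis, bp) for 6 genes with large changes. Points are single replicates, lines their means, and open points are probes not well above background in both channels on all arrays; COX7A2L rises over 3 upstream probes and COX6B1 falls over 2 probes downstream of the start.

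COX7A1, the heart and skeletal muscle form of subunit VIIa, went from -0.29 and -0.36 to 1.58 and 1.00, a change of 1.62 (limma adjusted p = 0.000289). A probe at 62 bp carried most of it, with ratios of -0.41 and -1.03 before and 10.20 and 8.29 after, and the mean change of the gene without it was 0.57. Its SMAD3 channel rose by 2.35 (0.0203). COX7A2, the ubiquitous form, was not found under its symbol.

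Tissue isoforms and their ubiquitous partners were read separately, since they have different probes. COX4I2, the hypoxia-linked form of subunit IV, fell by 2.01, from 1.09 and 0.99 to -0.93 and -1.01, with the SMAD3 channel down by 2.17 (limma adjusted p = 0.0281). Within 250 bp of the start its change was -0.30 (limma adjusted p = 0.222) and with the median of its probes -0.20 (0.517), and neither was called. COX4I1, the common form, fell by 0.47, from 1.00 and 1.24 to 0.76 and 0.54 (limma adjusted p = 0.0339), a call lost without basal replicate 2 (0.21), stimulated replicate 1 (0.0624) or stimulated replicate 2 (0.164). COX8C, the testis form of subunit VIII, rose by 2.86, from -2.84 and -2.39 to 0.20 and 0.29 (limma adjusted p = 7e-06), with a mock channel that fell by 2.98 and a SMAD3 channel change of -0.04. COX8A, its common form, fell by 1.37, from 0.00 and 0.18 to -1.71 and -0.85, and its change without its most changed probe was -0.49 and was not called (limma adjusted p = 0.282). COX6A2, the muscle form of subunit VIa, had a change of -0.81 (limma adjusted p = 0.00148), of 0.03 with the median of its probes (0.909) and of -0.26 without its most changed probe (0.183). COX6A1 had a change of -0.58 (limma adjusted p = 0.0109), but 3 of its 5 window probes were called higher, and it was called in the opposite direction with the median (0.64, limma adjusted p = 0.0265) and without its most changed probe (0.88, 0.00483). COX6B2, the testis form of subunit VIb, had a change of -0.07 that was not called. The differences between partners were not tested.

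Of the other complex IV subunit genes, COX5A fell by 0.39 (limma adjusted p = 0.0444), the smallest change that passed, and the call was lost without any single one of the replicates (0.0575 to 0.17). COX5B had a change of -0.01 that was not called, but over probes well above background in both channels it was called lower at -1.02 (limma adjusted p = 0.00109), as it was within 250 bp of the start at -1.45 (0.0196). Just on the other side of the threshold were NDUFB7 at 0.36 (limma adjusted p = 0.0583) and COX4NB at -0.40 (0.0645).

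In the ATP synthase the catalytic subunit gene ATP5B rose by 1.44, from -1.68 and -1.26 to -0.02 and -0.05 (limma adjusted p = 0.000238). It had 1 of 4 window probes well above background in both channels, and without its most changed probe the change was 0.63 (limma adjusted p = 0.0666). The call was also lost with normexp correction (0.5, limma adjusted p = 0.205) and with the median of its probes (1.21, 0.149). The mock channel of ATP5B fell by 3.07 (limma adjusted p = 0.0123), and its SMAD3 channel change of -1.56 was not called. ATP5A1, the other subunit of the catalytic ring, had ratios of 0.44 and 0.53 before and 0.16 and 0.39 after, and ATP5C1, the rotor subunit, a change of 0.38, and neither was called. Over probes well above background in both channels ATP5A1 was called lower at -0.59 (limma adjusted p = 0.0229). ATP5J2, a membrane-sector subunit, rose by 2.14, from -2.21 and -2.28 to 0.01 and -0.22 (limma adjusted p = 1.2e-05). ATP5O, the stalk subunit linked to oligomycin sensitivity, rose by 1.66, from -3.52 and -3.48 to -2.02 and -1.66 (limma adjusted p = 7.9e-05), and stayed below the array median. In both genes the mock channel fell, by 3.05 in ATP5J2 (limma adjusted p = 0.0481) and from 3.96 and 3.76 to 2.79 and 2.73 in ATP5O (0.0386). The SMAD3 channel changes of -1.02 and 0.62 were not called. Under normexp background correction ATP5O had a change of -0.20 that was not called.

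Taken one at a time over the 78 genes, the channels moved unequally. The SMAD3 channel was called higher in 2 genes, COX7A2L and COX7A1, and lower in 4, COX6B1, COX4I2, NDUFA1 and UQCRFS1, against a background of 0.804% higher and 1.74% lower. The mock channel was called higher in 8 and lower in 7, against 6.37% and 7.54%. The mock channel moved more than the SMAD3 channel in 52 of the 78 genes, as it did in 10729 of all 16299. Of the 43 genes whose ratio was called, 12 had the mock channel alone called, 4 the SMAD3 channel alone, 2 both and 25 neither. The same split was not counted over all called genes on the arrays.

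**Figure D3:**
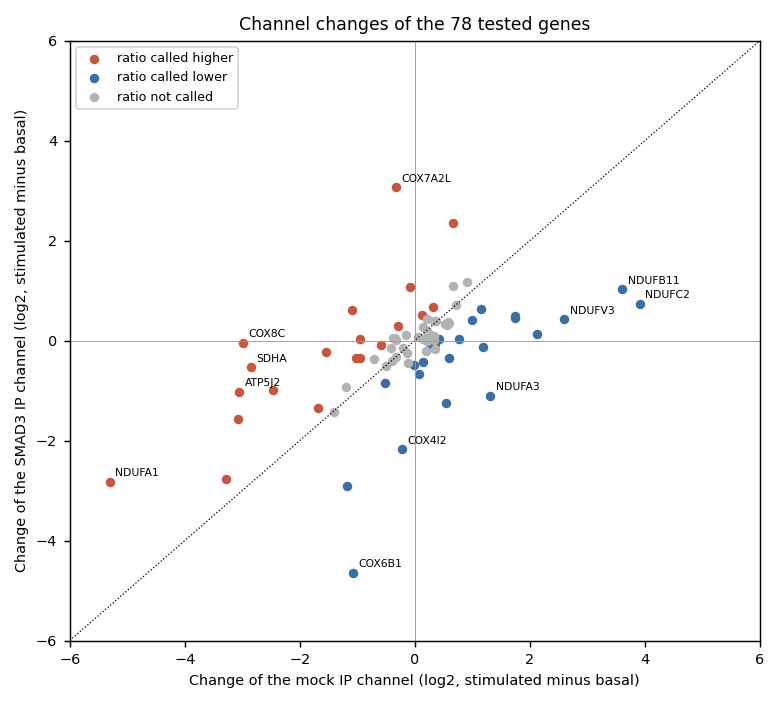
Change of the SMAD3 IP channel (y axis) against change of the mock IP channel (x axis), both log2 and stimulated minus basal, for the 78 tested genes, coloured by the call of the ratio. Points on the dotted line have an unchanged ratio; COX7A2L and COX6B1 lie apart along the SMAD3 axis, and NDUFC2, NDUFB11, COX8C and SDHA along the mock axis.

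At the basal level 20 of the 78 promoters were above the array median and 28 below it (limma against 0), against 20.7% and 38.1% of all genes. The highest called were COX6B1 at 3.44 ± 0.09 (SD, n = 2), NDUFS1 at 1.90 ± 1.18, COX4I1 at 1.12 ± 0.17 and COX4I2 at 1.04 ± 0.07. Each gene has its own probes, so this order describes the arrays and not the genes' binding. The lowest were ATP5O at -3.50 ± 0.03, COX8C at -2.62 ± 0.32, NDUFA1 at -2.48 and ATP5J2 at -2.24 ± 0.05. With loess within each array the counts were 36 above and 18 below, the reverse balance, beside 41.8% and 21.0% of all genes. The median basal ratio of all genes moved from -0.12 to 0.14.

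After stimulation 17 were above the array median and 32 below it, against 16.5% and 42.5% of all genes. The highest were COX7A2L at 2.93 ± 0.16 (SD, n = 2), NDUFS7 at 1.60 ± 0.04, COX7A1 at 1.29 ± 0.41 and SDHA at 1.03 ± 0.05. COX7A1 lay within its own SD of both NDUFS7 and SDHA. The lowest were NDUFB8 at -3.40 ± 0.13, NDUFC2 at -3.39 ± 0.04, NDUFB11 at -2.42 ± 0.68 and NDUFA7 at -2.22 ± 0.30, where neither the first pair nor the last pair differed beyond its spread. With loess the counts were 35 above and 18 below, beside 42.6% and 21.0% of all genes. Above the median in both conditions were 7 genes and below it in both 17, while 5 went from above to below and 3 from below to above. Over all 16299 genes these counts were 1341, 3694, 808 and 464, and the differences in share were not tested.

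The change was also tested probe by probe. Of the 1576 probes of these genes, 175 were called higher after stimulation and 236 lower, 11.1% and 15.0%, against 10.5% and 12.4% of all probes. Of the called probes, 112 and 160 were well above background in both channels on all arrays. The largest rises among those were the COX7A1 probe at 62 bp with 9.96, an NDUFS7 probe at 353 bp with 6.61, the SDHA probe at 301 bp with 6.29 and a COX6B2 probe at 865 bp with 6.19. Among the largest falls were the COX6B1 probe at 224 bp with -8.57, an NDUFA3 probe at 2792 bp with -7.34 and the COX6B1 probe at -2833 bp with -6.60. The SMAD3 channel moved more than the mock channel in the COX7A1 probe (11.47), the NDUFS7 probe (5.18) and the COX6B1 probe at 224 bp (-10.17), and the mock channel moved more in the other 4.

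The called changes often rested on few probes. In 17 of the 43 called genes the mean change without its most changed probe was under 50% of the full mean in size, and in 5 it changed sign. When that probe was left out of every gene on the arrays, 14 genes were called higher and 14 lower, beside 10.9% and 14.8% of all genes. Near the start, from -250 to 250 bp, 17.6% of the probes of these genes were called higher and 22.1% lower, beside 14.4% and 19.3% of all probes there. From -2000 to -1001 bp it was 5.50% and 10.1%, beside 9.44% and 10.5%. Of the probes within 250 bp, 73.4% were well above background in both channels, beside 67.3% of all probes there.

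**Figure D4:**
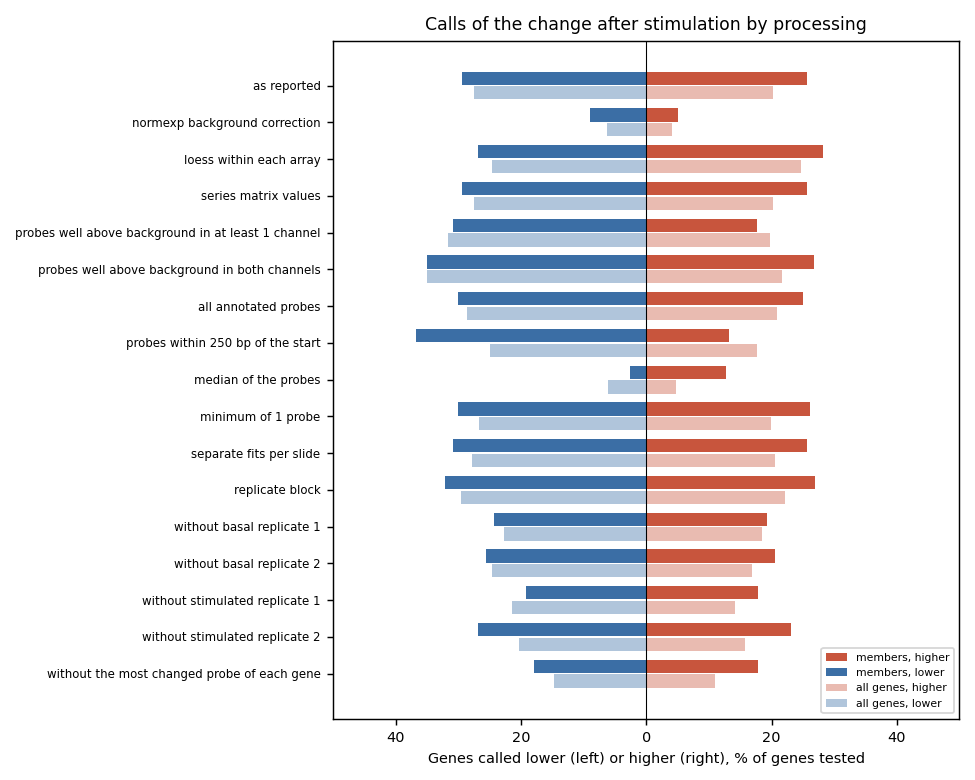
Share of genes called lower (left) or higher (right) after stimulation, in percent of genes tested, under each way of processing, for the respiratory chain genes (dark bars) and all genes (pale bars). Normexp correction and the median of probes give the shortest bars in both sets. As reported, the bars are 25.6% higher and 29.5% lower for the respiratory chain genes, beside 20.3% and 27.5% for all genes.

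Many of these genes start beside another gene, and 22 of the 80 shared window probes with a neighbour, so that the signal cannot be given to one of the pair. Examples are NDUFS3 with KBTBD4, ATP5D with C19orf26, NDUFS6 with MRPL36, ATP5H with KCTD2 and SDHD with TIMM8B.

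RefSeq promoters, from 250 bases before to 50 after the start on GRCh38.p14, were matched for 64 of the 80 genes by symbol or older symbol on the same chromosome. Their median G+C share was 61.7%, beside 58.3% over 27305 promoters, and their median observed over expected CpG was 0.84 beside 0.58. The NRF1 core GCGCATGCG was in 14.1% of them, on either strand, beside 2.1% of all promoters, and the YY1 core AAGATGGCG in 12.5% beside 1.85%. The GABPA core ACCGGAAGT was in 2 of the 64, 3.12% beside 1.07%. The SMAD box CAGAC was in 45.3%, beside 45.0%. The GC-rich element GGCGC was in 65.6%, beside 48.3%. The palindromic SMAD element GTCTAGAC was in none, beside 0.201%. In promoters of cytosolic ribosomal protein genes the NRF1 core was in 1.45% and the YY1 core in 8.7% of 69. These are counts of letters in a window and no test was made.

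**Figure D5:**
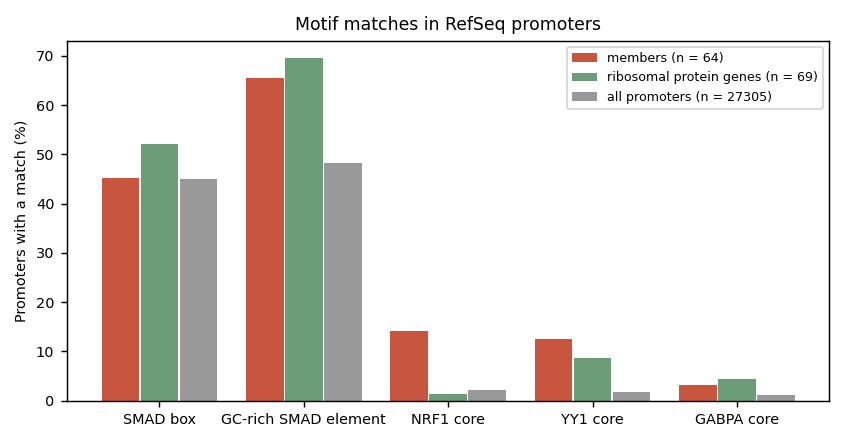
Share of RefSeq promoters with at least 1 match of each motif on either strand (y axis, percent) for the 64 matched respiratory chain genes, 69 ribosomal protein genes and all 27305 promoters. The NRF1 and YY1 cores are more frequent in the respiratory chain promoters (14.1% and 12.5%) than in all promoters, while the SMAD box is in 45.3% and 45.0%.

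Of the 63 genes tested and matched, the 29 with a SMAD box had a median change of -0.21, the 34 without it 0.02. Of the 29, 5 were called higher and 11 lower, beside 20.3% and 27.5% of all genes. The 41 with the GC-rich element had a median of -0.07, with 8 called higher and 15 lower, and the 22 without it -0.04. These differences were not tested. Spearman's rho between promoter G+C share and promoter ratio was 0.09 for basal cells, 0.22 for stimulated cells and 0.08 for the change, over these 63 genes, which share arrays and probe composition.

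The promoters of 6 genes with large changes and probes inside this window are shown, so that the signal can be set beside the sequence, in lower case and 5′ to 3′ on the strand of the gene. Capitals mark every match on either strand of the 6 motifs above. ATP5O (RefSeq ATP5PO, chr21:33915755-33916054, minus strand) had a probe at 5 bp whose ratio went from -3.70 and -3.91 to 0.80 and 1.09. SDHA (chr5:218070-218369, plus strand) has 2 SMAD boxes and 6 GC-rich elements, and its probe at -37 bp went from -1.18 and -1.12 to 0.58 and 0.17. NDUFV3 (chr21:42893059-42893358, plus strand) has 1 SMAD box and 6 GC-rich elements, and its probe at -14 bp went from -0.19 and 0.13 to -1.23 and -1.29. NDUFA3 (chr19:54102605-54102904, plus strand) has 1 GC-rich element, and its probe at -100 bp went from 0.04 and 0.16 to -0.80 and -1.25. COX6B1 (chr19:35648073-35648372, plus strand) has 2 overlapping GC-rich elements, and its probe at -59 bp, not well above background on all arrays, gave 1.82 and 1.32 and then 0.18 and 0.63. COX7A2L (chr2:42361168-42361467, minus strand) has 1 SMAD box, and its probe at -99 bp gave 1.03 and -0.28 and then 0.31 and 0.43. The called probes of this gene lay, by their annotated distances, upstream and downstream of the sequence shown. Distances are those of the array annotation, whose start may differ from the RefSeq start.
ATP5O promoter: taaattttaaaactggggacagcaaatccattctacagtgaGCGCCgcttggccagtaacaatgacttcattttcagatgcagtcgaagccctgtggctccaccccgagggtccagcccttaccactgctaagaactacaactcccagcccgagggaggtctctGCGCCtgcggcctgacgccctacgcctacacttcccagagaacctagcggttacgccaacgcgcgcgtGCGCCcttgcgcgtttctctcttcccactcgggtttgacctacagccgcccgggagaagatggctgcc
SDHA promoter: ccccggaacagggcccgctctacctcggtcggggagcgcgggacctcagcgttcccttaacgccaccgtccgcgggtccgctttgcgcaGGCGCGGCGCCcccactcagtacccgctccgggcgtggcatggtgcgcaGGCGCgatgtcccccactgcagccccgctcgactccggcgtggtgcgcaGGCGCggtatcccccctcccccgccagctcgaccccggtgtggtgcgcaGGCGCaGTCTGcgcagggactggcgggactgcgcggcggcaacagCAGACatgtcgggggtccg
NDUFV3 promoter: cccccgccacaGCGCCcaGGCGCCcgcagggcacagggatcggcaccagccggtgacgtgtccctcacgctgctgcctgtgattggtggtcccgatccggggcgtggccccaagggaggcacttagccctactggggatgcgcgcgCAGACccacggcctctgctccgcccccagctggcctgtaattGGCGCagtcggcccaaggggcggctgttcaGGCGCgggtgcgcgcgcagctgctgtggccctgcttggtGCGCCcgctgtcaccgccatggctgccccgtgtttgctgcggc
NDUFA3 promoter: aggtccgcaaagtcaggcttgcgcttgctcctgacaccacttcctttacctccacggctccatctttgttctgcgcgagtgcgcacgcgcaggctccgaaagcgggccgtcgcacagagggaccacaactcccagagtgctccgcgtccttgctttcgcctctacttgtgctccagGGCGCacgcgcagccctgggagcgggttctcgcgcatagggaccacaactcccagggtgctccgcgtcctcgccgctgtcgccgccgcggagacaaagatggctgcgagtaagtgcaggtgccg
COX6B1 promoter: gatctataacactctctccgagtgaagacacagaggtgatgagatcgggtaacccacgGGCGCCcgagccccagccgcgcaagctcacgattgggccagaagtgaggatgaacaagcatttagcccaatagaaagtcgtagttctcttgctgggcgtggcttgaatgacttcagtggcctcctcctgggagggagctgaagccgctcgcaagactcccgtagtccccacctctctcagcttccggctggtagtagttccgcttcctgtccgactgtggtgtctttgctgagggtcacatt
COX7A2L promoter: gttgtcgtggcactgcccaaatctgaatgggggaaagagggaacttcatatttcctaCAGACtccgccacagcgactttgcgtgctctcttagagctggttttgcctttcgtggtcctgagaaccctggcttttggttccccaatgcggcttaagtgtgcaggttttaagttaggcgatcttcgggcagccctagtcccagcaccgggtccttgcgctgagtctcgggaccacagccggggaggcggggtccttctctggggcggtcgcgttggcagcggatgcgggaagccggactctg

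Other genes of the pathway were counted beside the subunits. Of 29 assembly factor genes tested, 9 rose and 5 fell, with a median change of 0.23. The largest fall was that of COX11, a factor that inserts copper into complex IV, which went down from 0.70 and 0.73 to -1.59 and -1.80, a change of -2.41 (limma adjusted p = 6.01e-06), and the largest rise was that of OXA1L, an inner membrane insertase, with 1.32 (0.000408). BCS1L, which inserts the Rieske protein into complex III, rose by 1.28 (limma adjusted p = 0.00118). The SMAD3 and mock channel changes were 0.86 and 3.2 in COX11, 1.02 and -0.37 in OXA1L, and 0.88 and -0.29 in BCS1L. Of 20 genes tested of electron carriers and regulators, 6 rose and 4 fell, with a median of 0.04. GABPB2, a partner of GABPA, rose by 1.67, ETFA, which passes electrons from fatty acid oxidation, by 1.47 and TFAM, the packaging factor of mitochondrial DNA, by 0.89. In these 3 genes, in that order, the SMAD3 channel changed by -0.05, -0.16 and -1.22. Their mock channel changed by -1.79, -1.7 and -2.18. POLRMT, the mitochondrial RNA polymerase, fell by 2.31, from 0.41 and 0.36 to -1.86 and -1.98 (limma adjusted p = 5.95e-06). Its SMAD3 channel changed by -0.15 and its mock channel by 2.09. NRF1 itself, at -0.33, was not called. Of 75 cytosolic ribosomal protein genes tested, another large group of housekeeping promoters, 15 rose and 21 fell with a median of -0.04. The share called was 48.3% of the assembly factors and 48.0% of the ribosomal protein genes, beside 55.1% of the respiratory chain genes and 47.8% of all genes, and the differences were not tested.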

How the data were processed

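SMAD3 ChIP-on-chip was analysed for 2 basal and 2 TGFβ1-stimulated replicates of A549 cells, each on 2 promoter arrays of different probes. The authors deposited scanner files with processed and raw intensities of both channels, extracted with Agilent Feature Extraction 9.5.1.1 per the labels and file headers, which subtracts background, scales each dye linearly and replaces low signals by a surrogate. The authors also deposited a log2 table, and its values equalled the log2 of Cy5 over Cy3 processed signal within 3.13e-06. Surrogates made up 45.5 to 58.3% of SMAD3 signals and 39.1 to 53.0% of mock signals, and the share of an array's probes flagged as well above background in the 2 channels at once was 38.7 to 51.5%. Arrays give no read depth, and the 2 replicates limit the precision. The build of the probe positions was not stated in the file headers, so none is printed.

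Control probes and 1404 probes with an outlier flag were left out, and log2 ratios were centred on each array's median. Gene values were means over window probes (minimum 3). Basal, stimulated and change values were fitted with limma 3.58.1 in R 4.3.3 over all 16299 genes, with Benjamini-Hochberg adjustment and a threshold of 0.05, and each channel and each probe likewise. On simulated data for this comparison, with 200 of 16299 genes changed, 100% of changes of 1 and of 2 log2 units were called, and 8.26% of calls were false. The simulated noise was normal and independent between genes, with no surrogate signals, and in the data 47.8% of all genes were called. These rates therefore cannot be carried over to the calls above. Named genes were the 6 largest rises and falls with separate replicates, the 4 highest and lowest ratios per condition among those called against 0, the core subunits, the tissue isoforms and the genes of the study's target list; named probes were the 4 largest rises and falls well above background in both channels. The named values of 1 gene are not reported here, and it stayed in all counts. The genes, lists and rules were chosen with earlier results of these data known. A lower bound on a fold set the brighter condition against the lowest signal that was well above background on each dim array, or the probe's own signal where higher. Alternatives were background correction, loess, the deposited log2 table, probe filters, window, probe summary, separate slides, the replicate block and leaving out replicates.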

Additional observations from a re-analysis of the deposited data

How the results depend on the processing

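Calls of the change, 20 higher and 23 lower as reported, were 4 and 7 with normexp, 12 and 21 where a probe needed to be well above background in only 1 of the channels (68 genes testable), 16 and 21 with both channels required (60 genes), 5 and 14 within 250 bp of the start (38 genes), and 10 and 2 with the median of the probes. Over all genes the shares called were 4.04% and 6.22% with normexp and 19.8% and 31.7% with the filter on 1 channel. They were 21.6% and 35.1% with both channels required, 17.6% and 25.0% within 250 bp, and 4.79% and 6.18% with the median. Leaving out the most changed probe of each gene, which was chosen after seeing the data, gave 14 and 14, beside 10.9% and 14.8% of all genes. Leaving out single replicates gave 14 to 18 higher and 15 to 21 lower, the fewest without stimulated replicate 1. At the basal level, 20 above and 28 below the array median became 3 and 1 with normexp, 36 and 18 with loess, 9 and 40 over all annotated probes, 17 and 7 within 250 bp and 1 and 12 with the median. After stimulation, 17 and 32 became 9 and 11 with normexp, 35 and 18 with loess, 5 and 47 over all annotated probes, 11 and 15 within 250 bp and 5 and 9 with the median, and the number above was 8 without stimulated replicate 2 and 13 without stimulated replicate 1. Loess moved the median over all genes from -0.12 to 0.14 in basal cells and, in stimulated cells, from -0.18 to 0.16. Probe calls fell from 175 and 236 to 25 and 57 with normexp, beside 1.71% and 2.83% of all probes with normexp. The cause of these shifts was not tested, apart from the fewer genes testable.

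Of the 43 genes called, 43 kept their call with the deposited log2 table, 40 with loess, 26 of 32 testable over probes well above background in both channels, 11 with normexp, 8 with the median, and 29 to 36 without single replicates. The replicate block gave 21 higher and 25 lower, beside 22.2% and 29.6% of all genes, and kept all 43 calls. Across 16299 genes, the difference between the replicates in basal cells correlated at 0.11 with that in stimulated cells. With 2 pairs of same-numbered replicates this does not establish a pairing. A block for scan date was not run, as all arrays were scanned on 1 day. ATP5J2 kept its call in all 16 alternatives, and COX6B1, NDUFC2, COX8C, NDUFA1, NDUFA3 and NDUFV3 in all but 1 each. The call was lost with normexp in NDUFC2, COX8C, NDUFA1 and NDUFA3, and with the median in COX6B1 and NDUFV3. Some alternatives could change little. The deposited log2 table held the same ratios, so its calls could not differ. A minimum of 1 probe, separate slides and the replicate block left the change of ATP5J2 at 2.14.

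Over the 43 called genes that stayed testable, the sign turned in 2 with normexp, 2 and 3 with well-above-background filters on 1 and on both channels, 4 over all annotated probes, 3 within 250 bp, 4 with the median and 5 without the most changed probe. Among the genes followed by name, called or not as reported, the direction turned in these cases where at least 1 of the 2 settings gave a call. With all annotated probes ATP5C1 gave -0.91, COX6A2 0.03, CYC1 0.86, NDUFS3 0.26 and UQCRFS1 -0.73. With the median COX6A1 gave 0.64, COX6A2 0.03, NDUFA7 0.71 and NDUFS3 0.48. Without the most changed probe COX6A1 gave 0.88, COX6B2 0.64, NDUFS3 0.76 and UQCRFS1 -0.72. With normexp ATP5O gave -0.20 and UQCRFS1 -0.20. Within 250 bp NDUFB2 gave -0.16, NDUFB8 2.72 and SDHC 0.20. Over probes well above background in both channels NDUFB8 gave 2.08, and in at least 1 channel NDUFB11 gave 0.51.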
